A study of Rattus norvegicus with 48 samples.

Results

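Gene expression in the extensor digitorum longus, a fast-contracting muscle of the lower leg, was compared between old and young rats of the HCR line after a run to exhaustion. The comparison used the 6 arrays labelled old, HCR and exhausted and the 6 labelled young, HCR and exhausted, that is, 12 of the 48 arrays of the series. Arrays were assigned to groups by their labels alone, but the groups to compare were chosen with earlier results of these data known. The abbreviations, which the labels do not spell out, usually stand for rats selected over generations as high-capacity (HCR) or low-capacity (LCR) runners. With both lines, both ages and muscles taken either at rest or after exhaustion, the series holds 8 groups of 6 arrays each. The 6 old and 6 young HCR arrays at rest and the 6 old and 6 young LCR arrays after exhaustion served to ask whether a difference was shared.

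All 12 rats of the comparison had the same line and the same exercise label, and no other treatment or allele is given. The labels name no age in months, no running time or distance, and no delay from the run to the dissection. Old and young rats may therefore have run for different lengths of time, and a difference in age and a difference in the run cannot be told apart. Each array title of these groups carries an animal number of its own, so that the p-values measure the spread between rats. That spread was estimated within all 8 groups of the 48 arrays together, not from the 12 compared arrays alone. No batch, scan or pairing is given in the labels. In 1 case, young HCR rest replicate 6, the label lists 2 animal numbers. That array entered the comparison at rest and the shared estimate of the spread.

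The connective tissue around and between muscle fibres is built on fibrillar collagen, which fibroblasts and, near the tendon, tenocytes secrete. Small leucine-rich proteoglycans such as fibromodulin, keratocan and decorin bind the fibrils, and lysyl oxidases cross-link them. Skeletal muscle also carries a circadian clock, in which BMAL1 pairs with CLOCK or NPAS2 to switch on genes such as Per3 and Dbp, and the PER and CRY proteins act back on that pair. An exhausting run is known to raise transcription factors, heat shock proteins and FoxO-linked genes in muscle within hours.

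The values are the authors' log2 expression levels, 1 per probe set and array. A difference of 1 on this scale is a factor of 2, and levels of different genes cannot be set against each other, since probes differ in brightness. The array files give no detection call; genes brighter than 4.54 (the median over all probe sets and arrays) on 6 or more of the 48 arrays were tested, 9558 of 14557. Replicate arrays of these 2 groups correlated at 0.948 to 0.975. Old HCR exhausted replicate 1 and young HCR exhausted replicate 1 stood apart, with the highest lower quartiles of the 12 arrays (3.28 and 3.24) and median correlations with their own group of 0.948 and 0.957. Albumin, a liver transcript, read 9.79 in old replicate 5 and 8.84 in young replicate 3 and 4.32 to 6.33 in the other 10 arrays. All 6 fast fibre markers on the array were tested, and their mean level was 12.93 to 13.04 in old and 12.81 to 12.96 in young arrays. Since probes differ in brightness, these levels do not test the label of a fast muscle.

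After exhaustion, old HCR muscle held lower levels of collagen, tendon and other matrix transcripts than young HCR muscle, and the falls were larger than the rises. At an adjusted p below 0.05 (limma, two-sided, Benjamini-Hochberg over all tested genes), 251 of 9558 genes (2.63%) differed. Of these, 197 (2.06%) were lower and 54 (0.565%) higher in old rats. At least 2-fold differences numbered 27 downward and 1 upward, and all 8 differences of at least 4-fold were downward. The median difference of the called genes was -0.51 among the lower and 0.43 among the higher genes, against -0.02 over all genes tested. In 114 of the 251 the 6 old values did not overlap the 6 young values, with old below in 93 and above in 21; over all tested genes the groups did not overlap in 191 (2.00%). The count was 101 without both arrays that stood apart and 138 to 333 with any single array left out, lowest without old replicate 5 and highest without old replicate 2. It was 92 (14 higher, 78 lower) with only the compared groups in the fit and 140 (21 higher, 119 lower) with no filter on dim genes. Quantile normalization on top of the deposited values gave 266 (75 higher, 191 lower), and median centring gave 249 (37 higher, 212 lower).

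**Figure D1:**
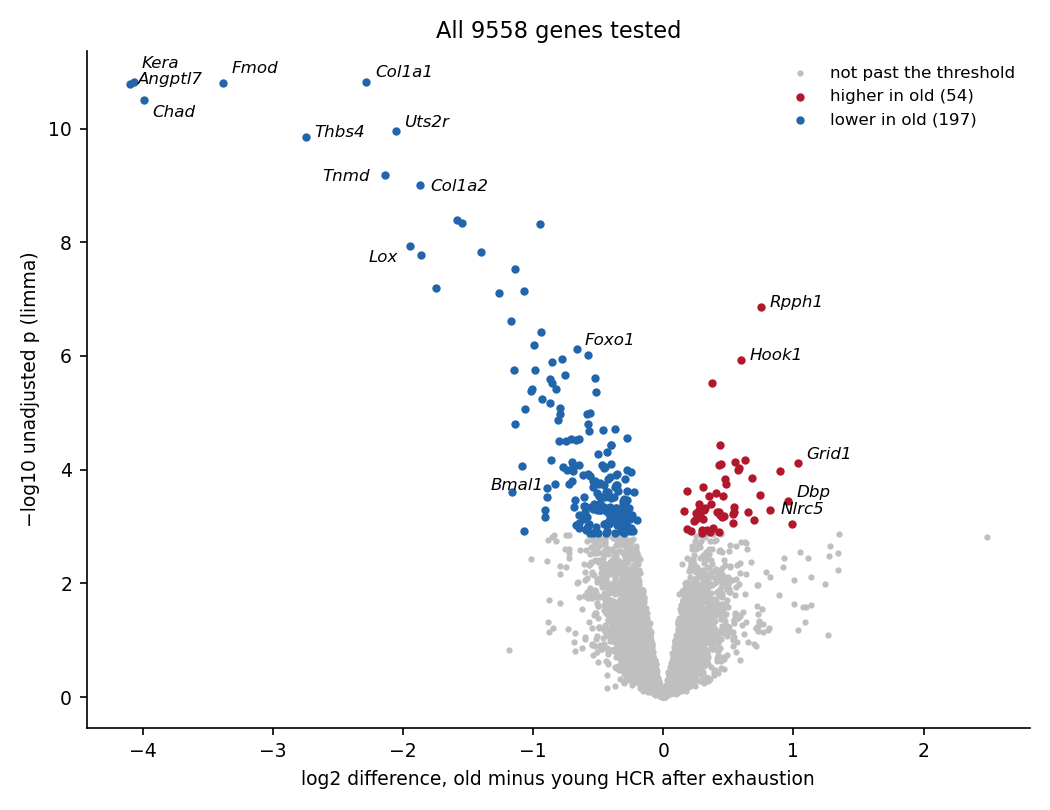
Each point is a gene: the horizontal axis gives the log2 difference, old minus young HCR after exhaustion, and the vertical axis the negative log10 of the unadjusted limma p. Blue points are the 197 lower and red points the 54 higher genes in old rats; matrix genes such as Kera, Chad and Fmod lie at the upper left together with Angptl7 and the receptor gene Uts2r, and no red point lies beyond 1.04.

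Several genes that build or mark tendon were among the largest falls in old rats. Keratocan (Kera), a proteoglycan of collagen fibrils, ranged from 4.22 to 5.32 with a median of 4.83 in old rats and from 8.68 to 9.49 with a median of 8.85 in young rats. Every old value lay below every young value, and the difference was -4.07 ± 0.45 (SE; 16.8-fold lower, adjusted p = 3.94e-08). Chondroadherin (Chad), a matrix protein that cells attach to, ran from 4.87 through a median of 4.999 to 5.66 in old and from 9.01 through 9.08 to 9.51 in young rats. Its groups lay wide apart as well (-3.99 ± 0.45, adjusted p = 6.08e-08).

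Fibromodulin (Fmod), a proteoglycan that shapes collagen fibrils, was 6.60, 6.93 and 7.72 at its lowest, median and highest in old rats and 10.32, 10.45 and 10.77 in young rats. It was 10.4-fold lower in old rats (-3.38 ± 0.38). Thbs4, a thrombospondin of tendon and muscle matrix, had a lowest, median and highest value of 6.82, 7.60 and 8.03 in old rats and of 9.83, 10.03 and 10.94 in young rats, a difference of -2.75 ± 0.33. Tenomodulin (Tnmd), a membrane protein typical of tenocytes, stood at 3.01, 3.67 and 4.44 in old rats and at 5.25, 5.65 and 7.08 in young rats. All 6 old Tnmd values were below the filter value of 4.54, in the dim range of the array, and the difference was -2.14 ± 0.27. For none of these genes did the groups overlap.

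Angptl7, which encodes a secreted protein of the angiopoietin-like family, showed the largest fall of all named genes. Its old values ran from 5.50 through a median of 6.46 to 6.84 and its young values from 10.01 through 10.52 to 10.66 (-4.10 ± 0.46; 17.2-fold lower, adjusted p = 3.94e-08). Cilp2, a cartilage and tendon matrix protein, was lower by a smaller amount (-1.14, groups not overlapping). The tendon transcription factors did not follow at the threshold: Mkx differed by -0.38 (adjusted p = 0.349) and Scx by 0.19 (adjusted p = 0.723).

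Over the tendon marker list, 6 of 8 tested members were lower and 0 higher in old rats, with a median difference of -2.45 against -0.02 for all genes. The mean of the 8 markers was 5.48 to 6.003 in the old and 7.69 to 8.45 in the young arrays, without overlap. These are bulk samples, in which fewer cells of a type and less RNA per cell cannot be told apart, and the amount of tendon in each piece of tissue is not given. The part of the tendon markers in the other results was not tested by a model that can separate it from age: with the marker mean as a covariate, chosen after seeing the data, limma called 0 genes (871 at an unadjusted p below 0.05), but the marker mean did not overlap between the groups, so that it and age can hardly be told apart.

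Type I collagen was lower in old rats in both of its chains. Col1a1 ranged from 7.20 through a median of 7.57 to 8.70 in old and from 9.64 through 9.80 to 10.68 in young rats (-2.28 ± 0.25; 4.86-fold lower, adjusted p = 3.94e-08). Col1a2 ran from 7.51 through 7.87 to 8.75 in old and from 9.39 through 9.73 to 10.52 in young rats (-1.87 ± 0.24, adjusted p = 1.05e-06). The lowest young value of each chain stood above the highest old value. Lox, the lysyl oxidase that cross-links collagen, had 5.12, 5.58 and 6.50 as lowest, median and highest in old rats against 6.87, 7.68 and 7.91 in young rats (-1.95 ± 0.28, adjusted p = 8.38e-06).

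**Figure D2:**
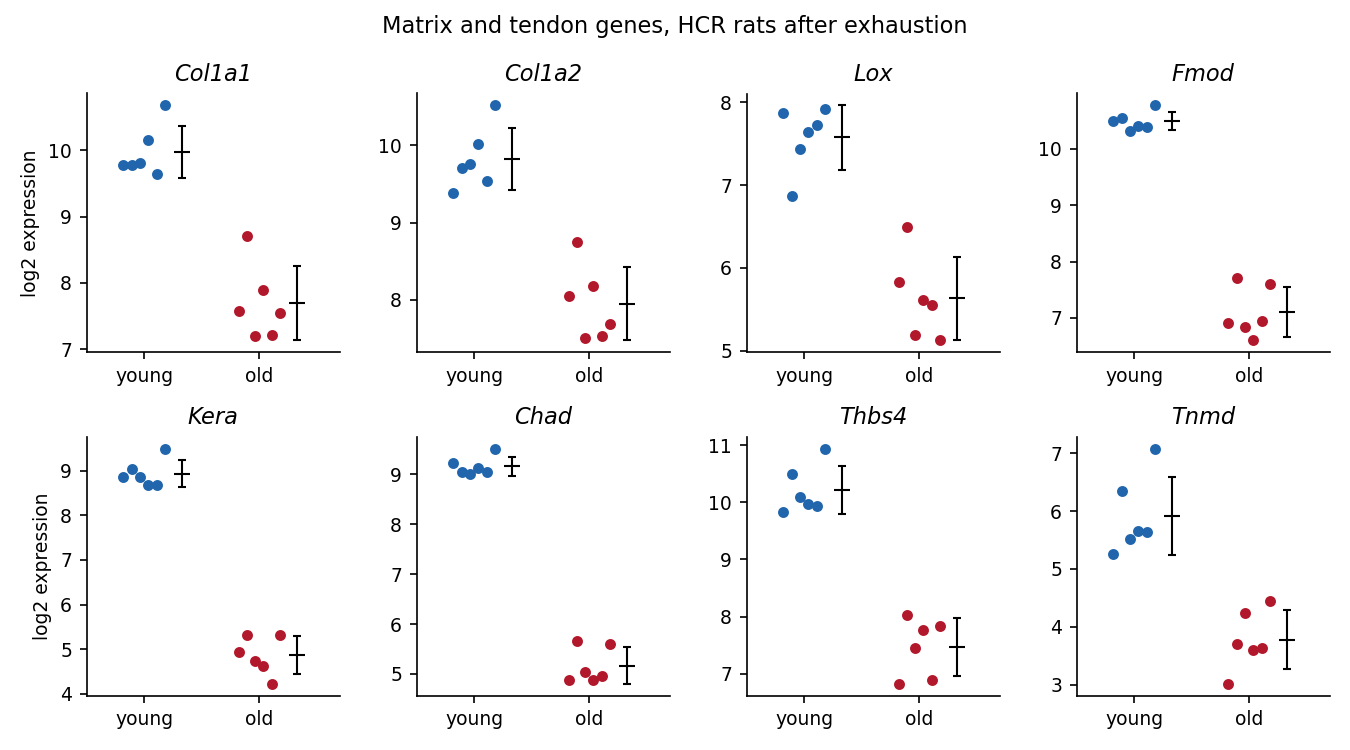
Log2 expression of 8 matrix and tendon genes (vertical axes, not starting at 0) in the 6 young (blue) and 6 old (red) HCR rats after exhaustion; each point is an array, and the bar shows the group mean with the SD. In all 8 panels the lowest young point lies above the highest old point; for Kera these are 8.68 and 5.32.

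Among the 27 tested genes of the extracellular matrix list, 7 were lower and 0 higher (25.9% called, against 2.63% of all tested genes). The median was -0.33, and 25 of 27 differences were below 0. The proteoglycan decorin (Dcn) was lower by a smaller amount (-0.86 ± 0.15, adjusted p = 0.000434), with old values of 10.21 to 10.98 and young values of 11.33 to 11.60. Sparc, a collagen-binding protein (-0.56), Col5a2, a chain of the collagen that nucleates fibrils (-0.40), and Mmp2, a gelatinase (-0.65), were the other members past the threshold. Several abundant matrix genes were not: Col3a1 differed by -0.51 and Fn1 (fibronectin) by -0.48, each at an adjusted p of 0.146. The basement membrane collagens Col4a1 (-0.19, adjusted p = 0.353) and Col4a2 (-0.24, adjusted p = 0.202) also did not pass.

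The fibroblast list shares 5 genes with the matrix list (Dcn, Lum, Col1a1, Col1a2 and Col3a1), so that its 4 lower and 0 higher of 10 members add little of their own. Dermatopontin (Dpt), a matrix protein outside that overlap, was 7.98, 8.71 and 9.02 in old and 9.11, 9.26 and 9.64 in young rats (-0.74 ± 0.17, adjusted p = 0.0118). Its groups did not overlap, but the call was lost without old replicate 5 (adjusted p = 0.0573). The fibroblast surface receptor Pdgfra differed by -0.39 (adjusted p = 0.174), Pi16 by -0.21 (adjusted p = 0.599) and Clec3b by 0.09 (adjusted p = 0.808). The list's mean per array was 7.30 to 8.26 in old and 8.41 to 8.71 in young rats.

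Further large falls belonged to secreted or matrix proteins, all without overlap between the groups. Prelp, a proteoglycan related to fibromodulin, differed by -1.86 (adjusted p = 1.08e-05), with old values of 7.11 to 8.02 and young values of 9.17 to 9.65. Chrdl1, a secreted antagonist of bone morphogenetic proteins, differed by -1.75 (old 4.71 to 6.16, young 7.03 to 7.37). Col11a1, a minor fibrillar collagen chain, differed by -1.55 and Itgbl1, an integrin beta-like protein, by -1.40. Ccdc3, a secreted protein, differed by -1.59 (old 4.29 to 5.37, young 6.38 to 6.99). All 15 of the largest falls kept an adjusted p below 0.05 with any single array left out and under the other settings tried, apart from the tendon covariate.

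The levels in all 8 groups show on which side the matrix genes moved. Col1a1 was 9.63 ± 0.62 (SD, n = 6) in young and 7.85 ± 0.27 in old HCR rats at rest, and 9.97 ± 0.38 and 7.69 ± 0.56 after exhaustion. In LCR rats it was 10.53 ± 0.34 in young and 7.73 ± 0.44 in old rats at rest, and 10.30 ± 0.51 and 7.59 ± 0.41 after exhaustion. The 4 old groups thus lay within 7.59 to 7.85 and the 4 young groups within 9.63 to 10.53. Col1a2 split the same way, with old group means of 7.70 to 7.95 and young means of 9.55 to 10.28.

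Kera averaged 7.79 ± 0.97 in young HCR rats at rest and 8.93 ± 0.30 after exhaustion, against 4.95 ± 0.57 and 4.86 ± 0.43 in old HCR rats. Fmod was 9.002 ± 0.81 and 10.49 ± 0.16 in the young HCR groups at rest and after exhaustion, and 7.32 ± 0.31 and 7.10 ± 0.45 in the old ones. The young HCR rats at rest were more spread out than the exhausted ones in both genes, and they stood lower. Angptl7 (8.69 and 10.41 in young HCR, 6.01 and 6.30 in old HCR), Chad (7.61 and 9.16, then 5.24 and 5.17), Thbs4 (9.28 and 10.21, then 7.87 and 7.46), Tnmd (4.84 and 5.92, then 3.70 and 3.77) and Ccdc3 (5.59 and 6.60, then 5.14 and 5.01) also had a lower mean at rest than after exhaustion in young HCR rats. In LCR rats after exhaustion the means of old and young were 4.35 and 8.92 for Kera, 6.69 and 10.43 for Fmod, 5.54 and 10.14 for Angptl7, 4.83 and 9.11 for Chad, 7.04 and 10.31 for Thbs4, 3.59 and 5.97 for Tnmd and 4.79 and 6.48 for Ccdc3. Young LCR rats at rest averaged 9.01 for Kera, 5.99 for Tnmd and 10.05 for Angptl7, within 0.1 of the exhausted ones, and 10.04 for Fmod, 8.77 for Chad, 9.84 for Thbs4 and 6.03 for Ccdc3, below them.

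Uts2r, the receptor for the vasoactive peptide urotensin, differed between the ages after the run and not detectably at rest. After exhaustion its old values were 3.62, 4.44 and 4.55 at the lowest, median and highest, and its young values 5.87, 6.40 and 6.80. The groups lay far apart (-2.05 ± 0.24; 4.15-fold lower, adjusted p = 1.78e-07), with the old values in the dim range around or below 4.54. At rest the means were 4.66 ± 0.40 in young and 4.39 ± 0.30 in old HCR rats (-0.26, adjusted p = 0.63), so that only the young group stood higher after the run. The test of the difference between the age differences gave -1.79 ± 0.35 (limma, adjusted p = 0.0265). In LCR rats after exhaustion Uts2r was lower in old rats too (-1.59, limma, adjusted p = 1.72e-05). In LCR rats at rest its means were 4.63 ± 0.54 in old and 5.20 ± 0.67 in young rats, a difference that was not tested.

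Tspyl2, which encodes a nuclear protein related to nucleosome assembly factors, was the other gene for which the age difference after the run differed from that at rest. Old rats had 6.97, 7.31 and 7.504 and young rats 7.54, 7.90 and 8.10 as lowest, median and highest after exhaustion (-0.58 ± 0.10, adjusted p = 0.000372), without overlap. At rest old and young HCR rats averaged 6.97 ± 0.17 and 6.81 ± 0.17. In exhausted LCR rats Tspyl2 ran from 6.80 to 7.26 in old and from 7.05 to 7.26 in young rats, with overlap. The interaction in HCR rats was -0.74 ± 0.14 (adjusted p = 0.0265). These 2 genes were 0.0209% of those tested, 756 genes had an interaction at an unadjusted p below 0.05, and the count was 0 without the 2 arrays that stood apart, or without old replicates 1, 3 or 5 or young replicates 2, 3 or 4 alone.

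Of the FoxO transcription factors, which in muscle drive genes of protein breakdown and fuel choice, Foxo1 and Foxo3 were lower in old rats. Foxo1 ran from 7.66 through a median of 7.75 to 7.99 in old and from 8.13 through 8.38 to 8.95 in young rats (-0.67 ± 0.12, adjusted p = 0.0003). Foxo3 ran from 7.60 through 8.06 to 8.15 in old and from 8.26 through 8.39 to 8.75 in young rats (-0.46 ± 0.10, adjusted p = 0.0037). Neither pair of groups overlapped. At rest neither differed at the threshold (-0.18, adjusted p = 0.44, and 0.08, adjusted p = 0.71), and neither interaction passed (adjusted p = 0.373 and 0.205). With only the compared groups in the fit Foxo1 still passed after exhaustion (adjusted p = 0.0321) and Foxo3 did not (adjusted p = 0.0806).

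The other 13 genes of the glucocorticoid and FoxO target list did not pass. Of 15, 0 were thus higher and 2 lower (13.3% called, against 2.63% of all tested genes). The median of the list was -0.35, and 14 of 15 differences were below 0. Trim63 (-0.35, adjusted p = 0.118) and Fbxo32 (-0.05, adjusted p = 0.915), the ubiquitin ligases that FoxO factors are known to induce in wasting muscle, and Fkbp5 (-0.51, adjusted p = 0.227), a glucocorticoid-induced immunophilin, were among them. The list's mean per array was 8.43 to 8.83 in old and 8.86 to 9.28 in young rats, a narrow gap, while at rest the ranges were 7.75 to 7.99 and 7.58 to 7.92.

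The heat shock protein and chaperone list does not hold Hspa4l (higher, described with the rises). Of its 22 genes 4.55% were called, against 2.63% of all tested genes: only the inducible Hspa1b passed, lower in old rats. Its old values were 5.33, 5.63 and 6.20 and its young values 5.74, 6.70 and 7.85 at the lowest, median and highest, so that the groups overlapped (-0.91 ± 0.24, adjusted p = 0.0297). This call was lost in 7 of the 12 fits that left out 1 array, with an adjusted p of up to 0.112 without young replicate 1, and the near-identical Hspa1a may contribute to the signal. None of the 23 tested immediate early genes, which are induced within minutes of a stimulus, passed after exhaustion (median -0.14). The nearest were Ier3 (0.50, adjusted p = 0.152) and Maff (-0.59, adjusted p = 0.174), and Fos itself differed by -0.85 (adjusted p = 0.339). At rest 7 of these 23 were higher in old HCR rats and 0 lower, with a median of 0.45, where 323 of all 9558 genes (3.38%) passed, 165 of them higher; the list's mean per array was 6.51 to 7.46 in old and 6.26 to 7.10 in young rats at rest, and 7.52 to 8.03 and 7.74 to 8.24 after exhaustion.

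**Figure D3:**
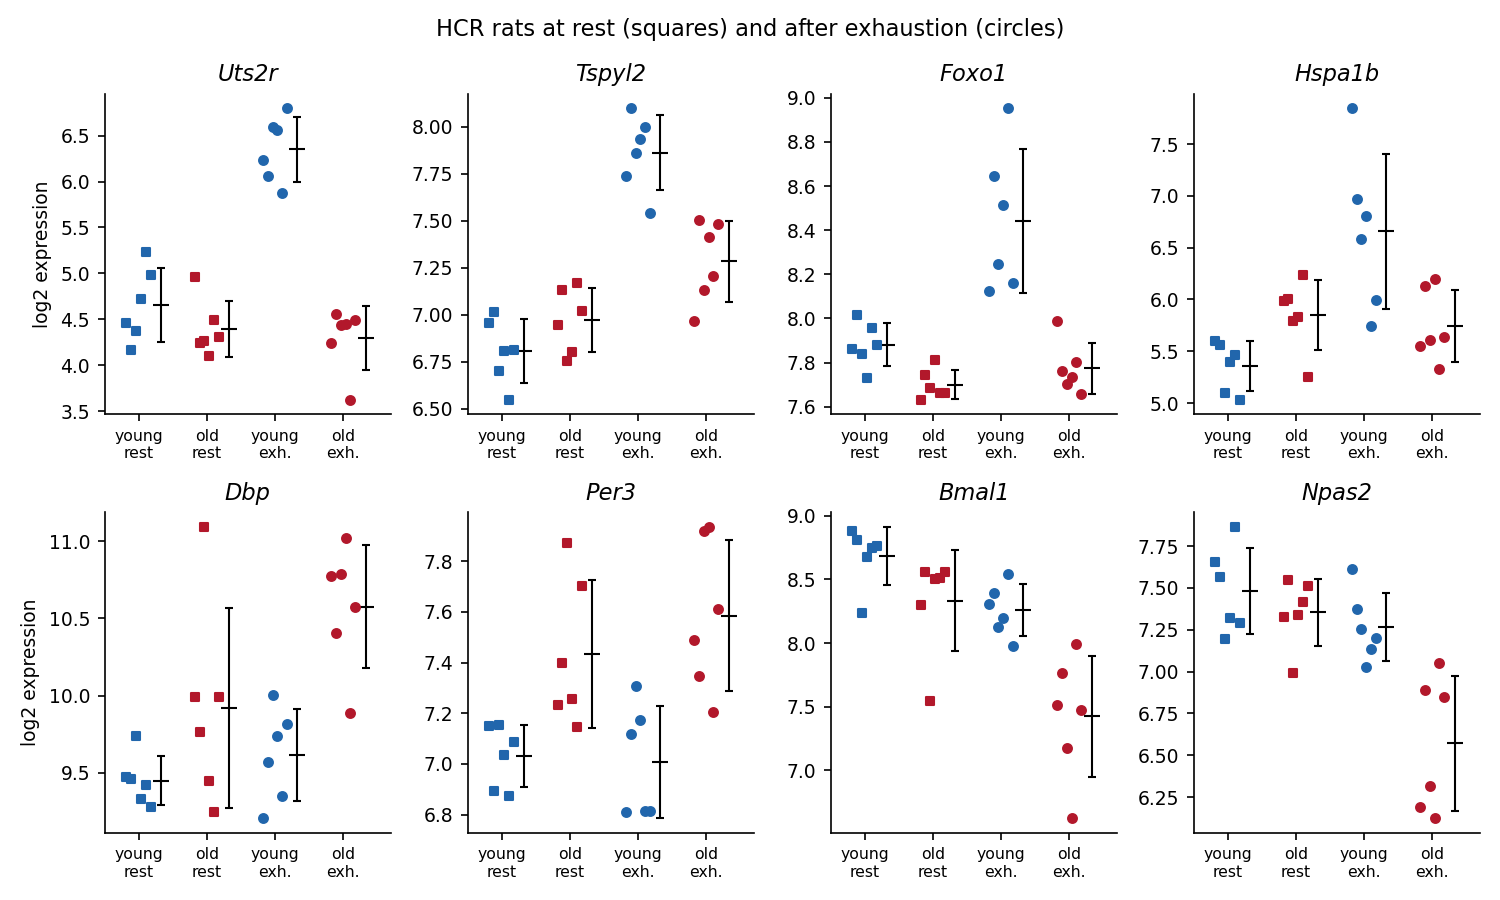
Log2 expression (vertical axes, not starting at 0) of 4 signalling and 4 clock genes in HCR rats: squares at rest, circles after exhaustion (exh.), blue young, red old; each point is an array, with the mean and SD beside it. For Uts2r and Tspyl2 the young exhausted rats stand above the other 3 groups, while Bmal1 and Npas2 are lowest in the old exhausted rats.

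On the circadian clock list 4 of 11 tested genes passed (36.4%, against 2.63% of all tested genes). The activators Bmal1 and Npas2 were lower in old rats, and the output factor Dbp and the repressor Per3 were higher. For Bmal1 the lowest, median and highest values were 6.63, 7.49 and 7.99 in old and 7.98, 8.25 and 8.54 in young rats, and the groups met only at their edges (-0.83 ± 0.20, adjusted p = 0.0165). For Npas2, which can take the place of CLOCK, they were 6.12, 6.58 and 7.05 against 7.03, 7.23 and 7.61 (-0.70 ± 0.16, adjusted p = 0.012). Dbp had 9.89, 10.67 and 11.02 in old and 9.21, 9.66 and 10.002 in young rats (0.96 ± 0.25, adjusted p = 0.0252), with a short overlap. Per3 had 7.21, 7.55 and 7.94 against 6.81, 6.97 and 7.31 (0.58 ± 0.13, adjusted p = 0.0118).

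The other 7 of the 11 tested clock genes did not pass, among them Per2 (0.41, adjusted p = 0.415), Nfil3 (-0.43, adjusted p = 0.177), Clock (-0.08) and Cry1 (-0.18). At rest none of the 11 passed in HCR rats; the Dbp difference was 0.47, that of Per3 0.40, that of Bmal1 -0.35 and that of Npas2 -0.13. The time of day at which tissue was taken is not given, so that a shift in sampling time between the groups and a difference in the clock cannot be told apart. The Dbp call was lost in 5 of 12 fits that left out 1 array (adjusted p up to 0.0637, without young replicate 1) and the Bmal1 call without old replicate 4 (adjusted p = 0.0628); without the 2 arrays that stood apart none of the 4 passed, and with only the compared groups in the fit only Dbp did.

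The 250 bases before the annotated start of 1 clock gene that was lower (Bmal1) and 1 that was higher (Dbp) are shown because the clock's own factors are known to act on such regions. Sequences are RefSeq's on GRCr8, read 5′ to 3′ on the gene's strand (+ for both), Bmal1 at chr1:176766078-176766327 and Dbp at chr1:105312006-105312255; capitals mark the letters AGGTCA, the core that ROR and REV-ERB receptors bind.
Bmal1: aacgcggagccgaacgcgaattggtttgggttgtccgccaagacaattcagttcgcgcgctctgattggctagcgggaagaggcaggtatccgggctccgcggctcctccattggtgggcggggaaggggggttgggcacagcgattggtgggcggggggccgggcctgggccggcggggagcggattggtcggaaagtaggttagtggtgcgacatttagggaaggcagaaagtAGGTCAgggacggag
Dbp: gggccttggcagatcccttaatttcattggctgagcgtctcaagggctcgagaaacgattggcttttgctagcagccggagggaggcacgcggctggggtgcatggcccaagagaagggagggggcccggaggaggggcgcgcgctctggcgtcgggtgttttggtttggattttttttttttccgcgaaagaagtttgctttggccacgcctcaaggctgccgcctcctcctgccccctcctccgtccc
The Bmal1 window held AGGTCA at -15 to -10 from the start. The E-box CACGTG and the D-box TTATGTAA were in none of the 4 windows of Bmal1, Npas2, Dbp and Per3 on either strand, and AGGTCA was not in the other three. Of all 33469 rat promoter windows of this length, 5.59% held the E-box, 0.828% the D-box and 14.1% AGGTCA. These matches describe the letters of the windows and do not mark sites in use. Only these exact letters in the 250 bases were searched. Their absence does not show that a gene lacks such an element elsewhere or in another spelling.

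Genes of antigen presentation by MHC class I were higher in old rats in 3 cases. Nlrc5, the transactivator of class I genes, had 5.16, 5.53 and 6.53 in old and 4.14, 4.88 and 5.08 in young rats, without overlap (0.82 ± 0.22, adjusted p = 0.0297). Tap1, a subunit of the peptide transporter, had 5.23, 5.52 and 6.01 against 4.53, 4.78 and 5.39 (0.65 ± 0.18, adjusted p = 0.0309). B2m, the invariant light chain, had 11.27, 11.53 and 12.06 against 10.86, 11.02 and 11.32 (0.54 ± 0.14, adjusted p = 0.0317), and for these 2 genes the groups overlapped slightly.

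Of the 21 tested members, 3 were higher and 0 lower (14.3% called, against 2.63% of all tested genes). The median was 0.27, with 3 differences below 0. The class I heavy chain gene RT1-CE1 missed the threshold (0.44, adjusted p = 0.0505), and the RT1 genes are near-identical copies whose probes may read each other. None of the 19 interferon response genes passed (median 0.26); Gbp5, a guanylate-binding protein, differed most (0.64 ± 0.20, adjusted p = 0.0711; old 5.999 to 6.44, young 5.12 to 5.93, no overlap) and Irgm by 0.50 (adjusted p = 0.148). The calls were not firm: Nlrc5 was lost in 3, Tap1 in 6 and B2m in 7 of the 12 fits that left out 1 array, with adjusted p up to 0.128 and 0.125 for Nlrc5 and B2m without old replicate 1 and up to 0.0907 for Tap1 without young replicate 5. Without the 2 arrays that stood apart none of the 3 passed.

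No marker of an immune cell passed the threshold, and the part of such cells in the antigen presentation result was not tested. Of the T and NK cell list, 5 of 16 members were bright enough to test and 0 passed; their mean was 4.34 to 4.70 in old and 3.97 to 4.40 in young arrays, in the dim range, with a median difference of 0.51. Cd8a (0.51, adjusted p = 0.0656) and Nkg7 (0.56, adjusted p = 0.135) were the nearest to the threshold. Of the 12 macrophage markers 0 passed and 11 had differences below 0 (median -0.27), with overlapping means of 5.92 to 7.02 in old and 6.44 to 6.77 in young arrays; Cd4, which rat macrophages carry, differed by -0.82 (adjusted p = 0.0593) and Lyve1 by -0.55 (adjusted p = 0.119). None of the 12 neutrophil markers passed the filter. Of the complement list 0 of 9 passed (median -0.12), with Serping1 at -0.29 and C3ar1 at -0.25, and of the inflammatory signalling list 0 of 20 (median -0.0047), with Cebpb at -0.45 (adjusted p = 0.1) and Nfkb1 at -0.20.

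Among markers of vessel cells, 1 endothelial and 1 smooth muscle gene were higher in old rats. Vwf, the clotting factor carrier made by endothelium, had 6.19, 6.53 and 6.96 in old and 5.55, 5.95 and 6.11 in young rats (0.63 ± 0.14, adjusted p = 0.0101), and Tagln, an actin-binding protein of smooth muscle, had 8.14, 8.20 and 8.42 against 7.61, 7.66 and 7.88 (0.54 ± 0.15, adjusted p = 0.0386). Neither gene's groups overlapped, and the Vwf call held with any single array left out while Tagln's was lost in 11 of 12 such fits (adjusted p up to 0.079, without young replicate 2). Of the 9 endothelial markers 1 passed (11.1%, median 0.02), where 2.63% of all tested genes did. Of the 6 smooth muscle and pericyte markers 1 passed (16.7%, median -0.17). With 1 call each, such short lists do not show whether the cell type as a whole differed. Differences below 0 were found for 4 of the 9 endothelial and 5 of the 6 smooth muscle and pericyte markers. On the hypoxia and angiogenesis list 3 of 26 were lower and 0 higher (11.5% called, median -0.10). Thbs2, a matrix thrombospondin that limits vessel growth, differed by -0.997 ± 0.17 (adjusted p = 0.000262, old 5.59 to 6.61, young 6.83 to 7.38). The others were the matricellular factor Ccn2 (-0.58, adjusted p = 0.0423) and the Notch target Hes1 (-0.54, adjusted p = 0.0498). The Ccn2 and Hes1 calls were lost in 9 and 10 of the 12 fits that left out 1 array (adjusted p up to 0.122 without old replicate 3 and 0.189 without old replicate 5).

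Few genes of energy metabolism passed the threshold after the run. With 2.63% of all tested genes passing, these small counts do not show that energy metabolism differed less than other genes. Of 57 oxidative phosphorylation subunits 1 was higher and 1 lower (3.51%, median -0.01): Ndufa6 of complex I (0.41 ± 0.11, adjusted p = 0.0309; old 8.90 to 9.36, young 8.44 to 8.76) and Atp5f1d of ATP synthase (-0.28 ± 0.07, adjusted p = 0.0118; old 11.51 to 11.76, young 11.82 to 11.98). None of 14 citric acid cycle genes passed, although 13 of 14 differences were below 0 (median -0.14); Pdha1, a subunit of pyruvate dehydrogenase, was nearest (-0.21, adjusted p = 0.0816, groups not overlapping), then Idh3a (-0.15, adjusted p = 0.194). In fatty acid oxidation 1 of 22 was lower (median -0.07), Acsl1, which activates long-chain fatty acids (-0.39 ± 0.10, adjusted p = 0.0309). In the PPAR and fasting list 1 of 20 was lower (median -0.22), the nuclear receptor Ppard itself (-0.42 ± 0.12, adjusted p = 0.0375; old 7.75 to 8.12, young 8.12 to 8.54), while its targets Pdk4 (-0.68, adjusted p = 0.37) and Ucp3 (-0.73, adjusted p = 0.345) did not pass.

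Glycolysis held 1 higher and 1 lower gene of 17 (median -0.04). The lactate transporter gene Slc16a1 was lower (old 8.57, 9.06 and 9.19; young 9.20, 9.50 and 9.56; -0.46 ± 0.12, adjusted p = 0.0293), and Pfkfb1, whose product sets a regulator of glycolysis, was higher (old 9.36, 9.53 and 9.80; young 8.97, 9.08 and 9.22; 0.45 ± 0.12, adjusted p = 0.034). Neither gene's groups overlapped. In the remaining metabolic lists 0 of 15 cholesterol and fatty acid synthesis genes passed (median -0.10; Msmo1 -0.31, adjusted p = 0.105), 0 of 17 of branched-chain amino acid catabolism (median -0.07; Ivd -0.26, adjusted p = 0.073) and 1 of 8 of polyamine metabolism (median 0.03), spermidine synthase (Srm, -0.30, adjusted p = 0.045). Acsl1, Ppard, Slc16a1, Pfkfb1, Ndufa6 and Srm each lost the call in 5 to 9 of the 12 fits that left out 1 array (adjusted p up to 0.144, for Srm without old replicate 1); Atp5f1d kept it in all 12 but lost it with only the compared groups in the fit (adjusted p = 0.0836).

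In the lists of muscle structure and upkeep few genes passed the threshold, where 2.63% of all tested genes did. Of 6 fast fibre genes 2 were slightly higher, the regulatory light chain Myl11 (0.18 ± 0.05, adjusted p = 0.0197; old 12.814 to 12.97, young 12.597 to 12.807) and fast troponin T, Tnnt3 (0.16 ± 0.04, adjusted p = 0.0309; old 13.09 to 13.18, young 12.82 to 13.05), both without overlap; such high levels are close to the highest value of 13.6 on the arrays, and the calls were lost in 4 and 7 of the 12 fits that left out 1 array (up to 0.0673 without old replicate 5 and 0.102 without young replicate 1). The Myl11 and Tnnt3 calls were also lost with quantile normalization, with median centring, with no filter and with only the compared groups in the fit. All 9 slow fibre genes had differences below 0 and 0 passed (median -0.26; Myl3 -0.68, adjusted p = 0.503). In growth and insulin signalling 1 of 24 was lower (median -0.13), Igfbp6, a binding protein for insulin-like growth factors (-0.80 ± 0.16, adjusted p = 0.00184; old 6.73 to 7.74, young 7.85 to 8.36). The ubiquitin and proteasome list had 1 of 35 higher (median 0.08), the proteasome subunit Psma5 (0.30, adjusted p = 0.0498), which was lost in 8 of 12 fits that left out 1 array (adjusted p up to 0.181, without old replicate 1). Autophagy and lysosome genes (0 of 20, median 0.02), calcium handling (0 of 15, median -0.03), antioxidant and NRF2 targets (0 of 21, median -0.01) and satellite cell markers (0 of 5, median 0.11) had no member past the threshold.

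The denervation and neuromuscular junction list had none of 16 past the threshold, with a median of 0.50, and the old rats differed widely among themselves. Its mean was 8.44 in old replicate 1 and 7.68 in old replicate 2, 6.76 to 7.15 in the other 4 old arrays and 6.70 to 6.88 in the young arrays. Gpnmb, a membrane glycoprotein, ran from 5.95 to 8.70 in old and from 5.63 to 6.08 in young rats (1.14 ± 0.49, adjusted p = 0.223), and Myod1, a myogenic factor, from 8.31 to 9.01 and from 7.87 to 8.72 (0.59, adjusted p = 0.0974). Sarcolipin (Sln), a regulator of the calcium pump, ran from 6.50 to 9.24 in old and from 5.85 to 6.64 in young rats (1.09, adjusted p = 0.307). On the p53 and senescence list, with 0 of 11 called and a median of 0.0047, Eda2r, a p53-induced death receptor, ranged from 7.76 to 9.92 in old and from 6.84 to 8.04 in young rats (1.14, adjusted p = 0.132).

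Markers of other cells in the tissue had no member past the threshold: adipocyte (0 of 8, median 0.10), Schwann cell and nerve (0 of 7), liver (0 of 13, median 0.02), mast cell (0 of 4 tested of 9, median -0.21), B and plasma cell (0 of 3 tested of 8, median -0.24) and red blood cell (0 of 2 tested of 7, median -0.60). Hbb-b1, a beta globin gene with near-identical copies, differed by -0.85 (adjusted p = 0.0538), with old values of 5.69 to 7.56 and young values of 7.29 to 8.13. The red blood cell mean was 5.60 to 6.72 in old and 6.53 to 6.90 in young arrays.

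**Figure D4:**
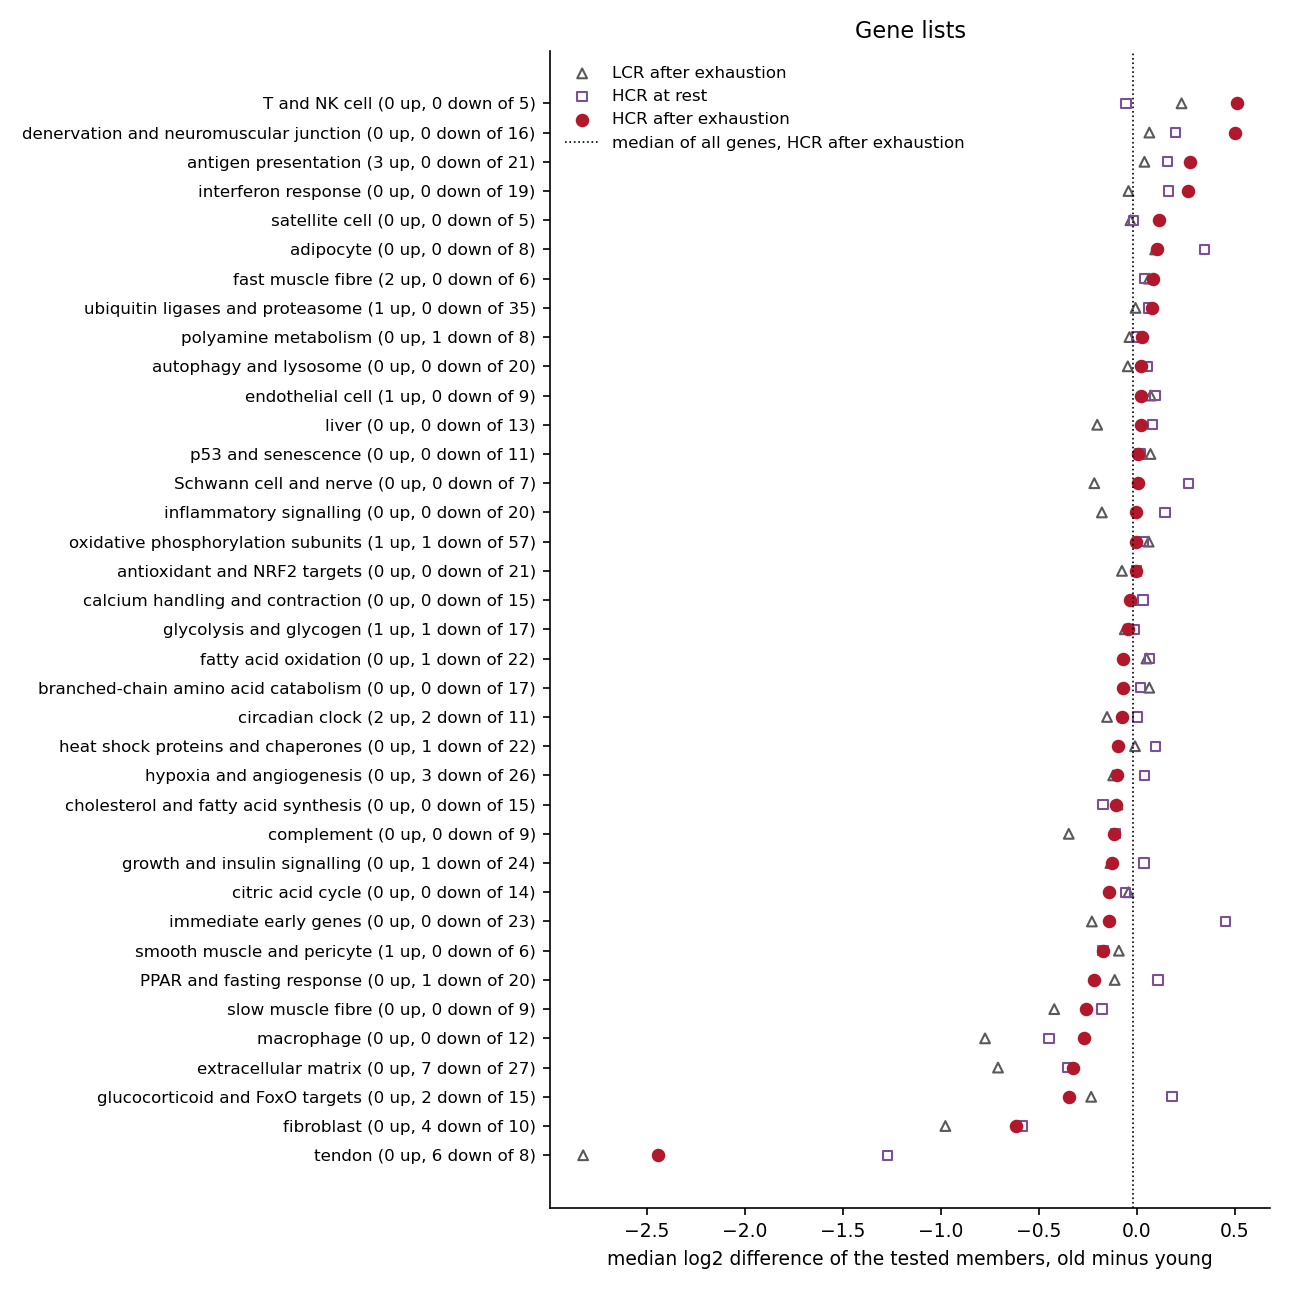
Median log2 difference, old minus young (horizontal axis), of each gene list with at least 5 tested members: red circles HCR after exhaustion, open squares HCR at rest, open triangles LCR after exhaustion; the labels give how many members passed the threshold upward and downward in HCR after exhaustion. The tendon list lies at -2.45, far left of the others, and most lists lie near the dotted line, the median of all genes at -0.02.

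The rises were smaller than the falls. Grid1, a glutamate receptor of the delta family, had 4.49, 4.74 and 5.69 in old and 3.34, 3.98 and 4.22 in young rats (1.04 ± 0.24; 2.05-fold higher, adjusted p = 0.0107), without overlap and with all young values in the dim range; its probe sets disagreed, since with their mean the difference was 0.52 (adjusted p = 0.0658). Rpph1, the RNA of ribonuclease P, showed the smallest p of the rises, with 11.77, 11.94 and 12.40 in old against 11.202, 11.26 and 11.47 in young rats (0.75 ± 0.12, adjusted p = 6.7e-05). Hook1, a microtubule-binding linker protein, had 7.25, 7.49 and 7.60 against 6.39, 6.86 and 7.24 (0.60 ± 0.11, adjusted p = 0.000419). Neither gene's groups overlapped.

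Nmrk2, the muscle kinase of nicotinamide riboside, had 9.21, 9.55 and 9.81 in old and 8.55, 8.77 and 8.96 in young rats (0.75 ± 0.19, adjusted p = 0.0222), without overlap. Sqor, the mitochondrial enzyme that oxidises sulphide, had 6.87, 7.79 and 8.40 against 6.23, 6.74 and 7.25 (0.90 ± 0.21, adjusted p = 0.012), and the chaperone gene Hspa4l 7.27, 7.46 and 7.74 against 6.23, 6.77 and 7.46 (0.68 ± 0.16, adjusted p = 0.0141), each with some overlap. Gja3, a connexin (0.58, adjusted p = 0.0111), Sf3b5, a splicing factor subunit (0.55, adjusted p = 0.0106), Smsl1 (0.70, adjusted p = 0.0365) and Tmem196 (0.99, adjusted p = 0.0396) complete the 15 largest rises together with Dbp, Per3, Nlrc5, Tap1 and Vwf above. Tmem196 was lost in 8 and Smsl1 in 7 of the 12 fits that left out 1 array, Nmrk2 in 2 (old replicate 1, adjusted p = 0.0624, and young replicate 1) and Hspa4l in 1 (young replicate 1, adjusted p = 0.0543). The largest adjusted p in these fits was 0.149 for Tmem196, without young replicate 1, and 0.113 for Smsl1, without old replicate 1. With only the compared groups in the fit Hook1 (adjusted p = 0.0591), Sqor (0.154), Gja3 (0.0992) and Sf3b5 did not pass, while Rpph1, Grid1 and Nmrk2 did.

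The same age comparison was made in HCR rats at rest and in LCR rats after exhaustion; the 3 comparisons share no array. At rest 323 genes (3.38%) differed, 165 higher and 158 lower, and in exhausted LCR rats 491 (5.14%), 72 higher and 419 lower. Quantile normalization on top of the deposited values moved the split to 175 higher and 225 lower at rest and to 137 higher and 390 lower in LCR rats, and median centring gave 109 higher and 135 lower at rest. Of the 251 genes called in exhausted HCR rats, 68 were also called in the same direction at rest (27.1% of the 251 and 21.1% of the calls at rest), of which 52 were lower and 16 higher. With exhausted LCR rats 125 were shared (49.8% of the 251 and 25.5% of the LCR calls), 111 lower and 14 higher. Called the same way in all 3 were 48 genes, 42 lower and 6 higher, and 106 were called in neither of the others, 76 lower and 30 higher.

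Missing the threshold elsewhere does not show that a gene did not differ there. Among the 251 genes, 234 (93.2%) had the same sign at rest and 241 (96.0%) in LCR rats, against 62.3% and 65.7% of all tested genes. The 197 lower genes had median differences of -0.26 at rest and -0.40 in exhausted LCR rats, against -0.51 where they were chosen, and a choice made on a comparison favours larger values in it. The test of the difference itself found 2 genes (Uts2r and Tspyl2) between the states in HCR rats and 0 (0%) between the lines after exhaustion, where 472 genes had an unadjusted p below 0.05 and the smallest adjusted p was 0.253 (limma).

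**Figure D5:**
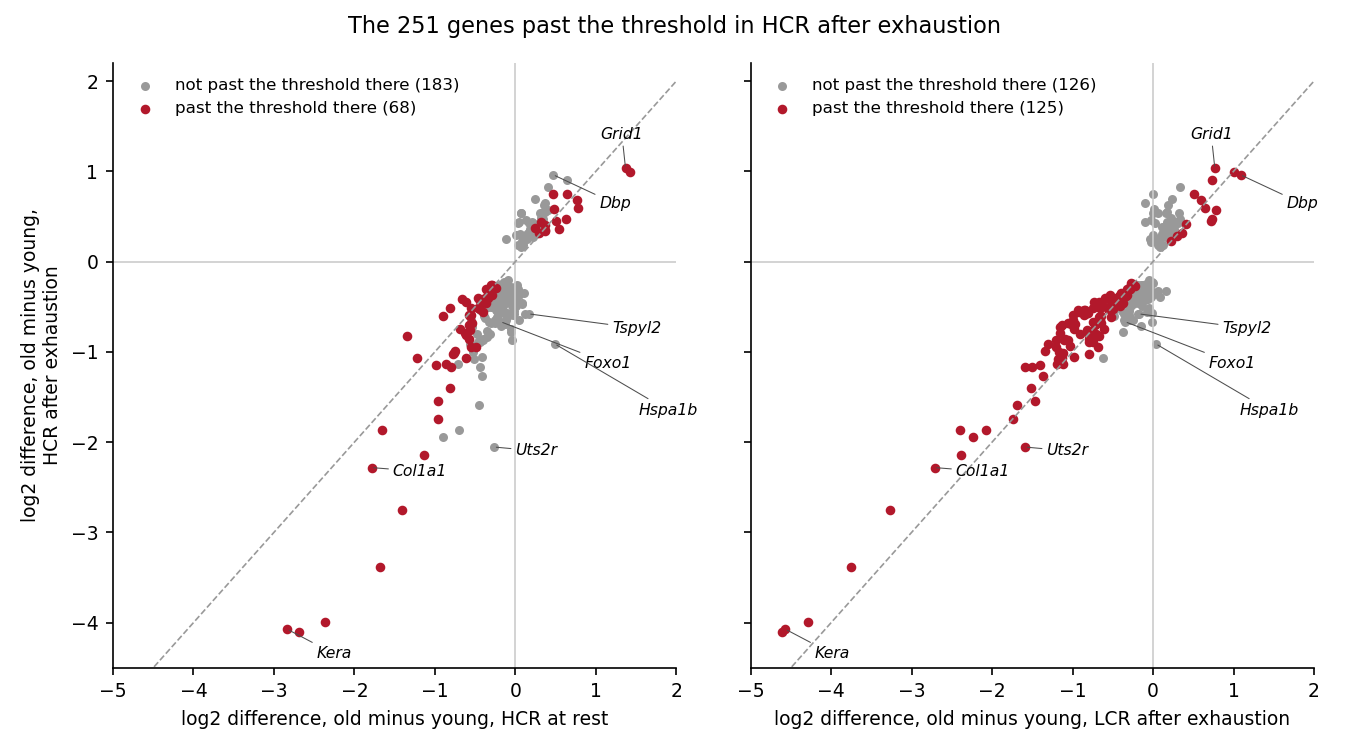
For the 251 genes past the threshold in HCR after exhaustion, the vertical axis gives the log2 difference, old minus young, in that comparison, and the horizontal axis the same difference in HCR rats at rest (left) and LCR rats after exhaustion (right); red genes passed the threshold there too (68 and 125) and the dashed line marks equal differences. Kera and Col1a1 lie far down on both sides, and Uts2r lies near 0 only on the left.

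Many but not all of the matrix genes named above were called in all 3 comparisons. Col1a1 differed by -1.78 at rest and by -2.71 in LCR rats after exhaustion, Kera by -2.83 and -4.57, Chad by -2.37 and -4.29, Fmod by -1.68 and -3.75, Thbs4 by -1.41 and -3.27, Tnmd by -1.13 and -2.38 and Angptl7 by -2.68 and -4.60, and all of these were called in both. At rest Lox (-0.90, adjusted p = 0.0592), Prelp (-0.71, adjusted p = 0.15), Ccdc3 (-0.46, adjusted p = 0.268) and Thbs2 (-0.53, adjusted p = 0.0747) did not pass, while in LCR rats they did. On the tendon list 6 of 8 were lower in each of the other comparisons too, with medians of -1.27 at rest and -2.83 in LCR rats. The tendon difference in HCR rats was thus numerically larger after the run than at rest, but for no tendon gene did the test of that difference pass (Fmod -1.70 ± 0.53, adjusted p = 0.328; Chad -1.62 ± 0.64, adjusted p = 0.493; Kera -1.24 ± 0.64, adjusted p = 0.655). On the extracellular matrix list 8 of 27 were lower at rest and 25 of 27 in LCR rats, and the test of the difference between the lines passed for none of the 9558 genes.

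Outside the matrix, the genes differed in how far the other comparisons shared their age difference. Foxo1 differed by -0.35 in exhausted LCR rats (adjusted p = 0.074) and Foxo3 by -0.39 (adjusted p = 0.0093). Hspa1b differed by 0.49 at rest (adjusted p = 0.28) and by 0.04 in LCR rats (adjusted p = 0.97), and its interactions did not pass (-1.40 ± 0.34, adjusted p = 0.196, against rest; -0.95, adjusted p = 0.939, between the lines). The clock genes differed in LCR rats after exhaustion in the same directions, Dbp by 1.09, Per3 by 0.78, Bmal1 by -0.74 and Npas2 by -1.02, all past the threshold. Nmrk2 differed by 0.65 at rest (adjusted p = 0.045) but by 0.00 in LCR rats, and Nlrc5, Tap1 and B2m passed in neither (adjusted p of 0.22 to 0.84).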

How the data were processed

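RNA from 48 rat muscles was hybridised to Affymetrix Rat Gene ST arrays, from 400 ng of RNA per sample per the labels' protocols. The deposited values are the authors' log2 expression levels; RMA and oligo are named in the submitters' processing notes and the series' design text has Expression Console, while their versions and which of them made the values are not given in the sources used here. Of 36685 probe sets, 15653 had a gene name, 14824 of them a single gene; 14670 were matched by Entrez number and 89 by symbol to RefSeq. For the 234 genes with several probe sets the brightest was used. Testing used limma 3.58.1 (R 4.3.3; Python 3.11.15 for tables) with 1 fit over all 8 groups, 40 residual and 3.77 prior degrees of freedom, no covariate, Benjamini-Hochberg adjustment over 9558 genes and a threshold of 0.05. Depth does not apply to arrays; their number limits the precision.

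The groups compared, the gene lists and the tests were chosen with earlier results of these data known. Named were the 15 largest rises and falls past the threshold, up to 4 members of each list past it (or the 2 of smallest p), and up to 5 genes per direction of each interaction. Cilp2, Clec3b, Clock, Col3a1, Col4a1, Col4a2, Col5a2, Cry1, Fbxo32, Fkbp5, Fn1, Fos, Lum, Mkx, Mmp2, Nfil3, Pdgfra, Pdk4, Per2, Pi16, RT1-CE1, Scx, Sparc, Trim63 and Ucp3 fall outside this rule and were chosen after their values were seen. Alternatives were the filter, quantile normalization, median centring, a fit of the compared groups alone, trend with robust moderation, array weights, the mean of probe sets, and arrays left out. The fitting step was tested on simulated data.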

Additional observations from a re-analysis of the deposited data

Results flagged for a closer look

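Among 276 groups of 6 arrays looked at (a gene or a list mean in old or in young exhausted HCR rats), 22 (7.97%) had an array whose distance from its nearest neighbour exceeded 0.625 of the group's range; chance gives about 1 in 20. Old replicate 1, which stood apart over all genes, was lowest for the citric acid cycle mean (10.89), the branched-chain amino acid catabolism mean (9.34), Ivd (8.87), Mccc2 (8.31) and Myl3 (9.24). Young replicate 1, the other such array, was highest for the T and NK cell mean (4.40), the mast cell mean (5.30), Cd4 (8.50) and B2m (11.32) and lowest for Msmo1 (6.74) and Tnnt3 (12.82). Old replicate 5, with the high albumin reading, was highest for the liver mean (5.20) and lowest for Uts2r (3.62), Igfbp3 (7.21) and Hes1 (7.56).

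Elsewhere, Rpph1 was 11.47 in young replicate 3, Myod1 8.31 in old replicate 4, Irgm 5.39 in old replicate 6, Cxcr4 6.07 in old replicate 2 and Lyve1 7.33 in young replicate 6. The endothelial mean was 7.80 in young replicate 2 and the B and plasma cell mean 6.60 in old replicate 6.

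The age difference of Uts2r after exhaustion minus that at rest was -1.79 and that of Tspyl2 -0.74, both past the threshold of the test of that difference (limma, adjusted p = 0.0265 each).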

How the results depend on the processing

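The count of 251 genes in exhausted HCR rats became 140 with no filter (137 of them among the 251), 92 with only the groups compared in the fit (81 among them) and 101 without the 2 arrays that stood apart (92 among them). It ranged from 138 to 333 with 1 array left out, and was 146 without old replicate 1, 138 without old replicate 5, 157 without young replicate 2 and 159 without young replicate 6. With the tendon marker mean as a covariate, chosen after seeing the data, it was 0 (limma, with 871 at an unadjusted p below 0.05). Since that mean did not overlap between the groups, this count does not separate the tendon markers from age. The other 6 settings gave 241 to 333. Of the 54 named genes past the threshold, 36 kept their call with no filter, 27 with only the groups compared and 29 without the 2 arrays. The 323 calls at rest became 188 with no filter and 177 with only the groups compared. The 2 genes whose age difference changed between rest and exhaustion became 0 with no filter and without the 2 arrays that stood apart, 1 with median centring, 1 with only the groups compared and 4 with array quality weights; with 1 array left out they ranged from 0 to 2. The comparison between the lines gave 0 throughout. The fewer arrays or the larger number of genes tested lower some of these counts by construction; otherwise the cause was not tested. No paired analysis was possible because the replicate numbers follow accession order and pair no animals. The number of arrays limits precision, and genes near 4.54, such as Tnmd and Uts2r in old rats, lie where the arrays separate signal from background least.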

Other observations

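The largest upward difference that missed the threshold was that of Rnase17, a member of the ribonuclease A family, at 2.49 on the log2 scale (limma, unadjusted p = 0.00152, adjusted p = 0.0538). It was singled out after its value was seen.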
